A study of Mus musculus with 18 samples.

Results

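The Igf2-H19 and Kcnq1ot1 domain of distal mouse chromosome 7 was examined in cells that had or had lost TRIM28 (KAP1), the corepressor that zinc finger proteins bring to imprinted DNA. The genes were taken from a list of 8 imprinted genes: Igf2, H19, Cdkn1c, Phlda2, Osbpl5, Ascl2, Slc22a18 and Kcnq1ot1. Of these, 7 were read in both RNA tables, out of 17869 gene names in all. Their chromatin was every H3K9me3 region and KAP1 peak from 20 kb before the first gene to 20 kb after the last, a window of 1.22 Mb (mm9, chr7:149741434-150962890). The wild-type H3K9me3 list had 29 regions in this window of 37002 in all, and the knockout list 38 of 37221. The KAP1 lists had 4 of 3099 peaks for wild type over input, 3 of 2382 for wild type over knockout and 2 of 1898 for knockout over input.

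RNA came from ES3 embryonic stem cells and from mouse embryonic fibroblasts (MEFs), both of strain C57BL/6, and chromatin from ES3 cells. The ES3 cells grew on gelatin in GMEM with serum and LIF. Wild-type ES3 cells were cultured for 4 days, and knockout ES3 cells were taken 4 days after 4-OHT (4-hydroxytamoxifen) had switched on the inducible Cre. The MEF pair was taken at day 5 in the same way, because MEFs divide more slowly per the labels. The labels name no allele beyond KAP1 WT and KO, and no other agent. Duplicates were pooled before RNA extraction, so each condition was 1 RNA library, and no difference in RNA below has a replicate check or a test. The labels remark that on day 4 H3K9me3 had decreased in the knockout without having been lost.

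An imprinted gene is transcribed mainly from the chromosome of 1 parent. On the Igf2-H19 side, a control region upstream of H19 is methylated on the paternal copy, where Igf2 is expressed, and is bound by the insulator protein CTCF on the maternal copy, where H19 is expressed. On the Kcnq1ot1 side, the promoter of Kcnq1ot1, a long antisense RNA that starts inside Kcnq1, is methylated on the maternal copy. On the paternal copy Kcnq1ot1 is transcribed and Cdkn1c, Phlda2, Slc22a18, Osbpl5 and Ascl2 are silenced, some of them in the placenta alone. The zinc finger protein ZFP57 recognizes TGCCGC in methylated imprint control regions and brings KAP1 there, and KAP1 recruits the enzymes that place H3K9me3. The RNA tables do not separate parental copies, so every level below is the sum of both.

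H19 was read through RefSeq NR_030416, the 84-base precursor of miR-675, a microRNA cut from the H19 transcript. The MEF table gives this row the symbol H19 and a span of 2615 bases (chr7:149761434-149764048, minus strand), and the ES table gives only the precursor (chr7:149762969-149763052). It is called the miR-675 row here, and no row for the long H19 RNA itself was analysed. The sequence is shown because this row stands for H19. RefSeq (GRCm38.p6) gives the hairpin with its mature arms in capitals, and then each arm with its seed, bases 2 to 8, in capitals. The arms have different seeds.
miR-675 hairpin: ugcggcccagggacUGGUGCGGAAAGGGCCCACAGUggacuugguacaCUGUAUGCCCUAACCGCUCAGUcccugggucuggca
miR-675-5p: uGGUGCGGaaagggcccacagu
miR-675-3p: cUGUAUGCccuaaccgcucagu

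The 250 bases before 4 starts are shown for the 3 genes that differed most in ES3 RNA and for Kcnq1ot1, whose promoter is an imprint control region. RefSeq windows (GRCm38.p6) matched 6 of the 8 genes with 11 windows, and where a gene had several the outermost is given. A pair of motifs was searched on both strands and is in capitals. The ZFP57 core is TGCCGC and reads GCGGCA from the other strand. The box of the factor NF-Y is CCAAT and reads ATTGG from the other strand.
Kcnq1ot1: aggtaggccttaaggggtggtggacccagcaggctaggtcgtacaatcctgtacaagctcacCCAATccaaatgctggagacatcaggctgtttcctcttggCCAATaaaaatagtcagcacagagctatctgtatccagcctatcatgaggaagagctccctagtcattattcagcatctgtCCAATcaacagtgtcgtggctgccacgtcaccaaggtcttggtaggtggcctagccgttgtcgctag
Igf2: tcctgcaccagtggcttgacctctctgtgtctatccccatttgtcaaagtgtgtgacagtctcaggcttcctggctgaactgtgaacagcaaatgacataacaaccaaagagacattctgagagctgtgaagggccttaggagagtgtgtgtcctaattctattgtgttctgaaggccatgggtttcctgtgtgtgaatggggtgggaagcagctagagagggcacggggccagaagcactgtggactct
Phlda2: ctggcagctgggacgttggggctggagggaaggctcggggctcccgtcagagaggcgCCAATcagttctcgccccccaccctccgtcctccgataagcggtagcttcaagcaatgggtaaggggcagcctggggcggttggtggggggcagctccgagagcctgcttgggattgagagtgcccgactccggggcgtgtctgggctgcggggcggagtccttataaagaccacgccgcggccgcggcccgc
Osbpl5: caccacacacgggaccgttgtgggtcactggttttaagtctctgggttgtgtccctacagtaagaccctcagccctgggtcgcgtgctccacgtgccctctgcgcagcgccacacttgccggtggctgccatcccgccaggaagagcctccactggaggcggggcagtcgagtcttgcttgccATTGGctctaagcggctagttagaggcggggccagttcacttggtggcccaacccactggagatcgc

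TGCCGC was in none of these 4 windows, and in 8.68% of all 32851 windows of 250 bases. Of the 7 other windows, the innermost of the 3 for Osbpl5 held 1 match, and 1 of the 4 for Igf2 held a match after its start, outside the 250 bases. Kcnq1ot1 had 3 CCAAT boxes, as did Ascl2, and 2.79% of all windows had 3 or more. Phlda2 and the outermost Osbpl5 window had 1 each, and 33.8% of windows had at least 1. CpG dinucleotides, which carry DNA methylation, numbered 1 before the outermost Igf2 start, 5 before Kcnq1ot1, 14 before Osbpl5 and 21 before Phlda2, against a median of 6. A match is a string of letters and not a measured binding site. Sequence further inside the genes and under the KAP1 peaks was not searched. Absence of TGCCGC from a window therefore says nothing about the rest of a control region.

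Trim28 itself checked the labels. Its RPKM (reads scaled to the length of the transcript and to the reads of the library) was 1051 in wild-type and 37.2 in knockout ES3 cells, 3.54% of wild type. In MEFs it was 62.8 and 5.84, or 9.29%. The ES3 pair also differed in markers of other cells. All 10 primitive and parietal endoderm markers passed 2-fold upward, with summed levels of 99.7 and 1317 RPKM and none at 0. Of 6 trophoblast markers with a row, 5 were measured and 4 were higher, with sums of 13 and 355.8 RPKM. Most of the knockout sum was Krt8 and Krt18, with 178.8 and 164.0 RPKM. The others had 0.881 (Eomes) to 7.69 RPKM (Hand1) in the knockout. Of 6 fibroblast markers, 4 were measured and 3 were higher, with sums of 2.24 and 16.8 RPKM, and of 4 mesoderm markers with a row 2 were measured and 1 was higher. Under 1 RPKM in wild type were 6 of the 10 endoderm, 4 of the 6 trophoblast, 5 of the 6 fibroblast and all 4 mesoderm markers. A measured gene among these reached 1 RPKM in the knockout alone and could not have been called lower. Of 6 ES cell markers, 4 were lower, with sums of 1913 and 939.1 RPKM. In bulk RNA, fewer cells of a type and less RNA per cell cannot be told apart. MEFs kept 6 of 6 fibroblast markers above 1 RPKM, with sums of 3607 and 3179 RPKM, and their ES cell markers summed to 1.04 and 1.79 RPKM with Pou5f1 and Zfp42 at 0. Read depth per library is unknown.

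In ES3 cells, loss of TRIM28 went with much more Igf2 and Osbpl5 RNA and less Phlda2 RNA, while 4 genes of the domain stayed within 2-fold. A gene was measured at 1 RPKM or more in at least 1 library of a pair, and called when the 2 libraries of a pair stood at least 2-fold apart after 1 RPKM was added to each. That addition makes the differences of low genes look smaller. Of the 7 genes, all measured, 2 were higher and 1 was lower. The 2 higher genes, Igf2 and Osbpl5, were under 1 RPKM in wild type and measured through the knockout alone. Over all 12024 measured genes, 12.5% were higher and 3.18% were lower. The median log2 ratio was 0.77 over the 7 genes and 0.08 over all.

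Igf2, the fetal growth factor expressed from the paternal copy, had 0.805 RPKM in wild-type and 21.7 in knockout ES3 cells (NM_001122737, chr7:149836673-149852721, minus strand). The 2 values stood 26.9-fold apart as deposited and 12.6-fold after the addition of 1 RPKM, a log2 ratio of 3.65 that ranked 45 from the top of 12024 genes. With 0.1 or 5 RPKM added the log2 ratio was 4.59 or 2.20. Its 3 transcripts gave nearly the same levels, 0.793 to 0.824 RPKM in wild type and 21.4 to 21.7 in knockout. Igf2 was thus below the 1 RPKM floor in wild type and the most abundant of the 7 genes in the knockout.

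The miR-675 row, transcribed with H19 from the maternal copy, had 3.21 RPKM in wild-type and 6.88 in knockout ES3 cells. The 2 values stood 2.15-fold apart as deposited. After the addition of 1 RPKM the log2 ratio was 0.91, which fell short of 2-fold. The row is short. Values of short rows times their length often fell on multiples of a smallest step, 43 of 101 rows in wild type and 26 of 63 in knockout. If that step is 1 read, the miR-675 row held about 7 reads in wild type and 31 in knockout. The exact binomial 95% interval of the deposited ratio was then 0.93 to 5.77, for counting error only.

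Phlda2, which restrains placental growth and is expressed from the maternal copy, had 85.0 RPKM in wild-type and 20.4 in knockout ES3 cells (NM_009434, chr7:150687450-150688446, minus strand). It was 4.02-fold lower, a log2 ratio of −2.01, and ranked 45 from the bottom of all measured genes. In wild-type cells it was the most abundant of the 7 genes.

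Cdkn1c, the cyclin-dependent kinase inhibitor p57, stands on the same side of the domain and did not go with Phlda2. It had 5.94 and 10.8 RPKM, a log2 ratio of 0.77 (NM_009876, chr7:150644255-150646901, minus strand). Slc22a18, an organic cation transporter gene between them, had 2.48 and 1.14 RPKM, a log2 ratio of −0.70 (NM_008767, chr7:150659626-150685239, plus strand). After the addition of 1 RPKM, Cdkn1c and Slc22a18 both stayed within 2-fold, in opposite directions. As deposited, knockout Slc22a18 was 46.0% of wild type, which is past 2-fold, and Cdkn1c was 1.82-fold higher.

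Osbpl5, an oxysterol-binding protein-like lipid transfer protein at the far end, had 0.656 RPKM in wild-type and 9.04 in knockout ES3 cells (NM_024289, chr7:150874667-150942890, minus strand). The values stood 13.8-fold apart as deposited and 6.06-fold after the addition of 1 RPKM, a log2 ratio of 2.60 that ranked 156 from the top. With 0.1 or 5 RPKM added the log2 ratio was 3.60 or 1.31. Ascl2, a basic helix-loop-helix factor of the trophoblast, had 7.02 and 8.02 RPKM, a log2 ratio of 0.17 (NM_008554, chr7:150152734-150155169, minus strand). Kcnq1ot1 RNA was not analysed here, because no row of either table could be matched to it. Of the genes named as silenced by Kcnq1ot1 on the paternal copy, Osbpl5 was thus higher and Phlda2 lower. Cdkn1c, Slc22a18 and Ascl2 were within 2-fold after the addition of 1 RPKM. The difference in endoderm and trophoblast markers moved with these RNA differences in the same pair of libraries, and its part in them was not tested.

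**Figure D1:**
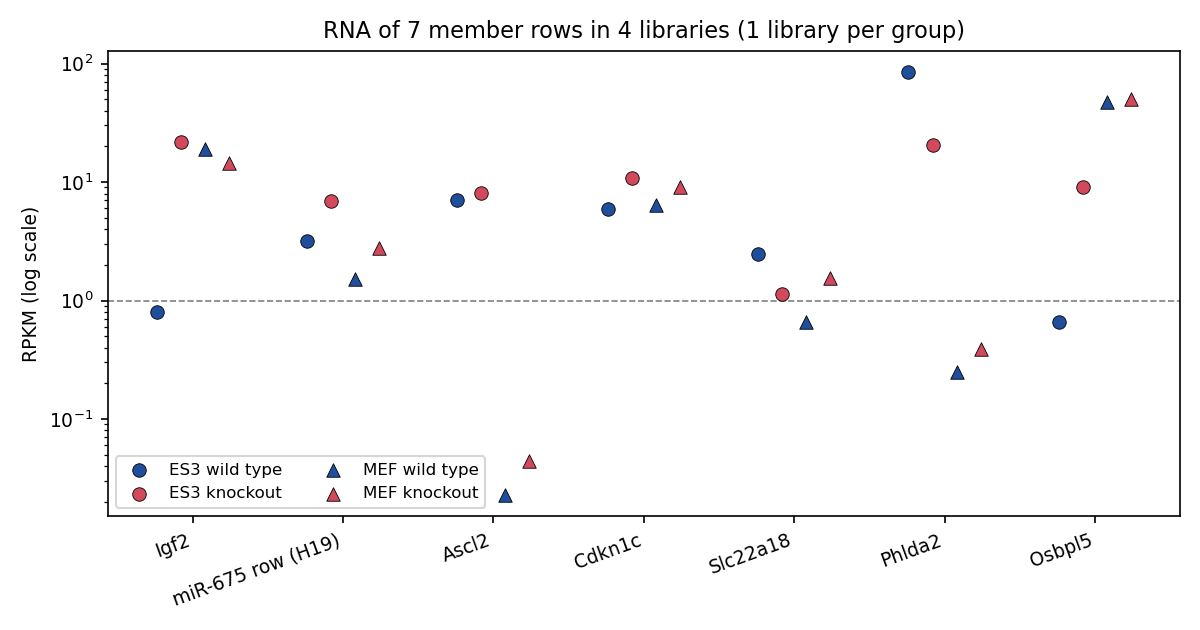
RPKM (log axis) of the 7 genes with an RNA row in the 4 libraries, 1 point per library; circles are ES3 cells, triangles MEFs, blue wild type and red knockout, and the dashed line is 1 RPKM. Igf2 and Osbpl5 cross the line in ES3 cells, Phlda2 lies at 85.0 and 20.4 RPKM in ES3 cells, and no pair of MEF triangles passed the 2-fold rule, although Slc22a18 lies on both sides of the line. The ES3 and MEF tables were normalized separately.

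In MEFs no gene of the domain was called in either direction. Of the 7 genes, 5 were measured, with 0 higher and 0 lower, against 0.981% higher and 4.84% lower among all 10805 measured genes. Igf2 had 18.9 RPKM in wild-type and 14.4 in knockout MEFs, a log2 ratio of −0.36. The miR-675 row had 1.53 and 2.78 RPKM, a log2 ratio of 0.58. If a step is 1 read, as above, it held about 7 and 13 reads, and the interval of the deposited ratio was 0.67 to 5.37. Cdkn1c had 6.39 and 9.02 RPKM, a log2 ratio of 0.44. Osbpl5, higher in the ES3 knockout, had 47.4 and 50.3 RPKM in MEFs, a log2 ratio of 0.08. Slc22a18 had 0.654 and 1.54 RPKM, a log2 ratio of 0.62. Phlda2 had 0.250 and 0.390 RPKM and Ascl2 had 0.0228 and 0.0446, all under the 1 RPKM floor. MEF ratios also differed with the length of the gene span. Centred within 20 bins of span, the log2 ratios were 0.02 for Cdkn1c, 0.16 for the miR-675 row and 0.48 for Osbpl5. They were −0.44 for Igf2 and 0.65 for Slc22a18, and none was called. All other MEF ratios here are given without this centring.

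The order of the genes by level also differed between the cell types, within tables that were normalized separately. In wild-type ES3 cells it ran Phlda2, Ascl2, Cdkn1c, miR-675 row, Slc22a18, Igf2 and Osbpl5. In wild-type MEFs it ran Osbpl5, Igf2, Cdkn1c, miR-675 row, Slc22a18, Phlda2 and Ascl2. Osbpl5 and Igf2 were last in wild-type ES3 cells, at percentiles 35.4 and 37.2 of all genes, and first in wild-type MEFs, at 93.0 and 83.1. In the ES3 knockout they stood at 66.8 and 82.8. With 1 library each, whether neighbours in these orders differ beyond error is unknown.

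Of 14 other symbols in the window, 8 were measured in ES3 cells, 1 was higher and 0 were lower, with a median log2 ratio of 0.04. That is the 12.5% of all measured genes that were higher, and nothing is read from it. The higher gene was Igf2as, with 0.210 and 3.78 RPKM and a log2 ratio of 1.98 (chr7:149845598-149856261, plus strand). It overlaps Igf2 on the other strand, and strand use in the counting is not given in the sources used here, so reads of the pair cannot be told apart. Cd81, a tetraspanin gene between Ascl2 and Kcnq1, had 159 and 277 RPKM, a log2 ratio of 0.80. Nap1l4, a histone chaperone gene beside Phlda2, had 89.8 and 85.6 RPKM, and Cars, a tRNA synthetase gene, had 59.6 and 40.9. Kcnq1, the potassium channel gene that contains the Kcnq1ot1 start, had 0 and 0.0734 RPKM. In MEFs 8 neighbours were measured and 0 were called, with a median of 0.31.

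**Figure D2:**
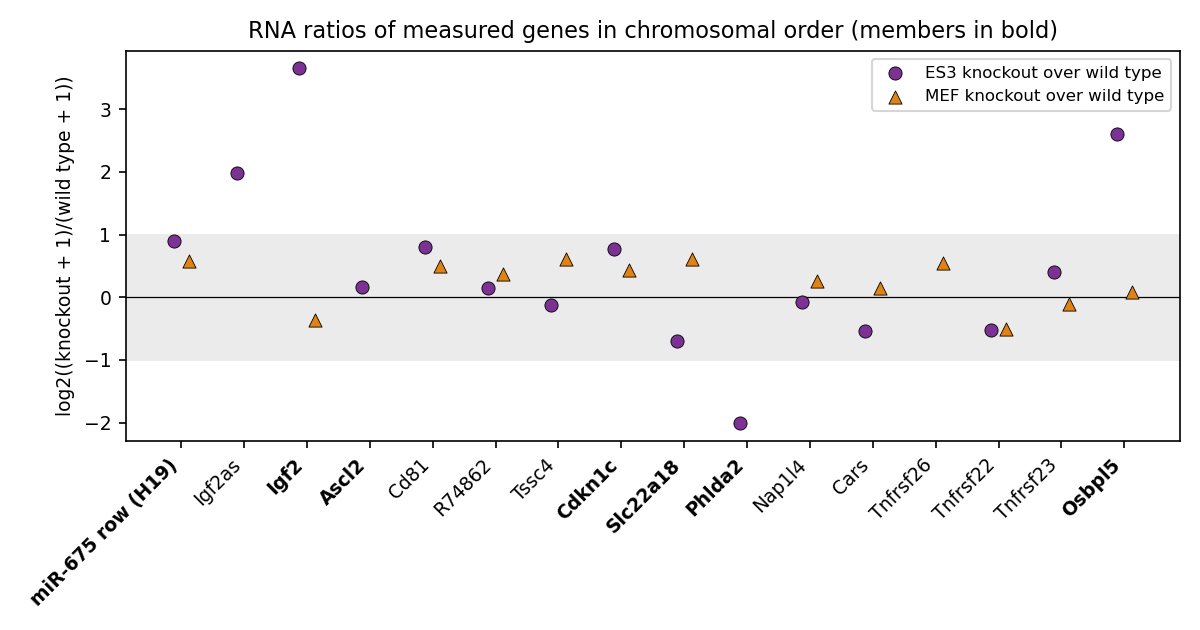
log2 ratio of knockout to wild-type RPKM, each plus 1, for every measured gene of the domain in chromosomal order; purple circles are ES3 cells, orange triangles MEFs, members are in bold and the grey band is within 2-fold. Outside the band lie Igf2 (3.65), Osbpl5 (2.60), Igf2as (1.98) and Phlda2 (−2.01), all in ES3 cells.

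Most H3K9me3 regions of the domain were listed in wild-type or in knockout ES3 cells but not in both. No knockout region was called just upstream of Igf2, whereas a shorter one was called upstream of H19. A region missing from a list of 1 call with no scores does not show that the mark was lost. Of the 29 wild-type regions, 21 were in the authors' wild-type-only list, or 72.4% (Wilson 95% interval 54.3 to 85.3). The share was 51.5% over the genome and 34.7% over chromosome 7. Of the 38 knockout regions, 30 overlapped no wild-type region by even 1 bp, or 78.9% (63.7 to 88.9), against 50.7% over the genome and 40.5% over chromosome 7. The remaining 8 in each list were retained. Nearby sequence was closer to the domain than the genome was. In the 5 Mb before it, 56 of 83 knockout regions overlapped no wild-type region, and 9 of 13 after it. Outside the Kcnq1 gene span the domain itself had 10 such regions of 17. Wild-type-only were 37 of 63 wild-type regions in the 5 Mb before, 5 of 9 after, and 15 of 22 in the domain outside Kcnq1. Covered length was similar, 29150 bp in wild type and 31338 bp in knockout. Intervals cover counting error only, and regions of 1 call per condition are not replicates.

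Upstream of H19 the wild-type region was chr7:149764157-149770139, 5983 bp long and 109 bp from the H19 start. It was longer than 98.1% of wild-type regions. The knockout region there, chr7:149765626-149769041, was 3416 bp, or 57.1% of the wild-type length, starting 1469 bp further from H19 and ending 1098 bp earlier on the other side. Shortening was common in the domain: 7 of 8 retained regions, or 87.5%, were shorter in the knockout, and the median knockout length was 67.5% of wild type. Over the genome 56.1% of 17945 retained regions were shorter, and the median was 94.6%.

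Upstream of Igf2, 2 wild-type regions had no counterpart in the knockout list. The first, chr7:149853756-149854596, was 841 bp long and 1035 bp from the Igf2 start. The second, chr7:149855074-149857335, was 2262 bp long and 2353 bp from it. Both overlap Igf2as, and the nearest knockout region lay 66.9 kb from the Igf2 start. All distances to Igf2 and Osbpl5 here are from the outermost start alone, and other RefSeq starts lie further inside each gene. Igf2 and H19 were the only 2 of the 7 genes with a wild-type H3K9me3 region within 20 kb of the start. Over all 17818 gene starts 24.4% had one, so that count is near the share of all genes and nothing is read from it. The nearest lay 24.1 kb from Cdkn1c, 36.8 kb from Slc22a18, 65.6 kb from Phlda2, 83.8 kb from Osbpl5 and 97.8 kb from Ascl2. Osbpl5 and Phlda2, which differed in RNA, were among the genes with no wild-type region within 20 kb of the start. A knockout-only region of 550 bp lay 2.66 kb downstream of the Cdkn1c start (chr7:150643690-150644239).

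**Figure D3:**
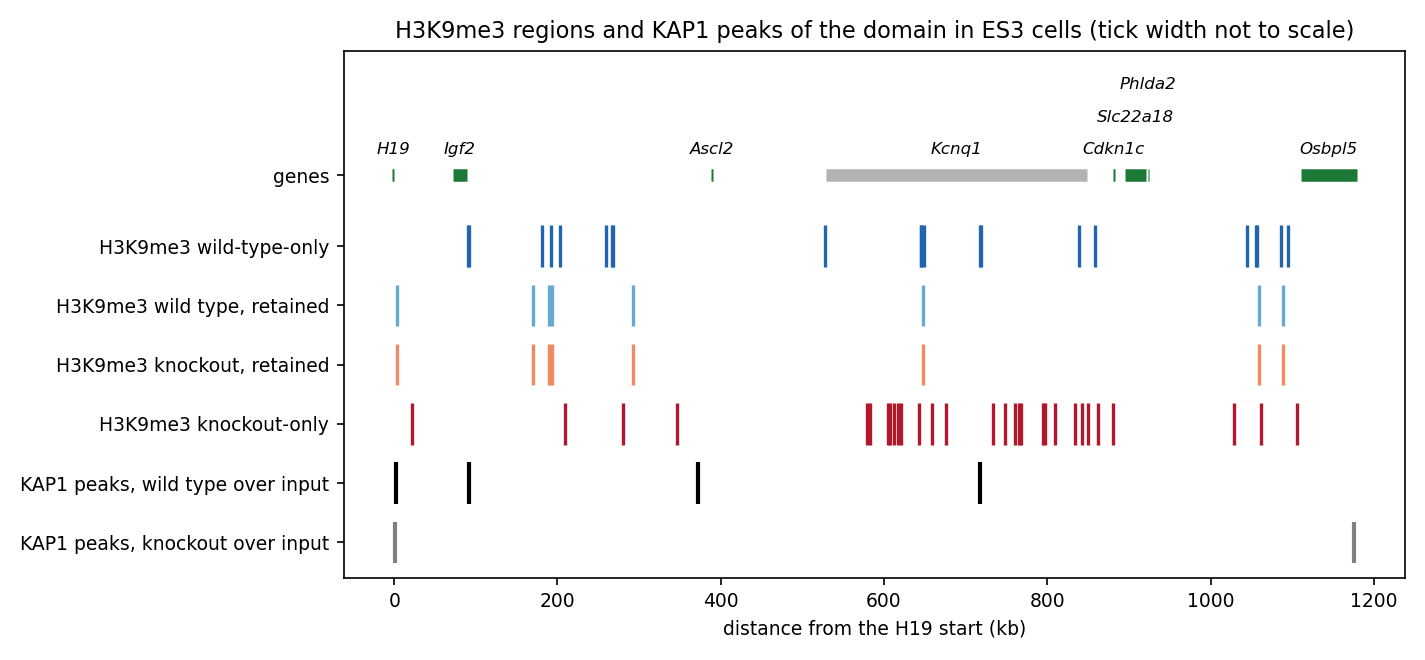
H3K9me3 regions and KAP1 peaks of the domain in ES3 cells against distance from the H19 start in kb; each tick is the centre of a region or peak, the green bars are member genes and the grey bar is Kcnq1. Knockout-only regions crowd within Kcnq1 (20 of 30), and the 4 wild-type KAP1 peaks stand near H19, Igf2, Ascl2 and within Kcnq1.

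KAP1 had 4 wild-type peaks over input in the domain, and 3 of them overlapped wild-type H3K9me3, against 30.5% of the 3099 peaks in the genome. The same 3 were also called over knockout, against 58.1%. Scores are the authors' own per-peak values on a scale that is not stated, with a median of 59.73 in the wild-type list over input.

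The highest score was within Kcnq1, at chr7:150481393-150481887, 188 kb downstream of the Kcnq1 start. It scored 343.48 and ranked 42 of 3099 over input, and scored 351.05 and ranked 17 of 2382 over knockout. The peak shared 52 bp with the wild-type-only H3K9me3 region chr7:150480851-150481444 and lay 646 bp from another, chr7:150482533-150483007. No knockout region overlapped either. The Kcnq1ot1 promoter window was read in GRCm38.p6 alone (chr7:143296498-143296797), and no coordinate was converted to mm9. Its distance to this peak was therefore not measured. The 188 kb is from the Kcnq1 start and does not place the peak away from the Kcnq1ot1 start.

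The peak upstream of H19, chr7:149765784-149766422, lay 1736 bp from the start and wholly inside the retained H3K9me3 region, in wild type and in knockout alike. It scored 152.12 and ranked 166 over input, and 101.38 and 244 over knockout. The peak upstream of Igf2, chr7:149855645-149856325, lay 2924 bp from the start and wholly inside the 2262 bp wild-type-only region. It scored 62.74 and ranked 1189 over input, and 70.53 and 655 over knockout. H19 and Igf2 thus each had a KAP1 peak within H3K9me3 upstream of the start, and the H3K9me3 region was retained at H19 and absent from the knockout list at Igf2.

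The fourth peak, chr7:150135395-150135987, lay 19.2 kb downstream of the Ascl2 start with a score of 62.54 and rank 1217. It was not called over knockout, and the nearest wild-type H3K9me3 region was 78.1 kb away. In knockout chromatin 2 peaks were called over input. The first, chr7:149764369-149764931, lay 321 bp upstream of the H19 start with a score of 58.83. The second, chr7:150939922-150940442, lay 2448 bp inside Osbpl5 with a score of 61.04. Both scored below the median of 62.62 in that list, and neither overlapped a wild-type peak.

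**Figure D4:**
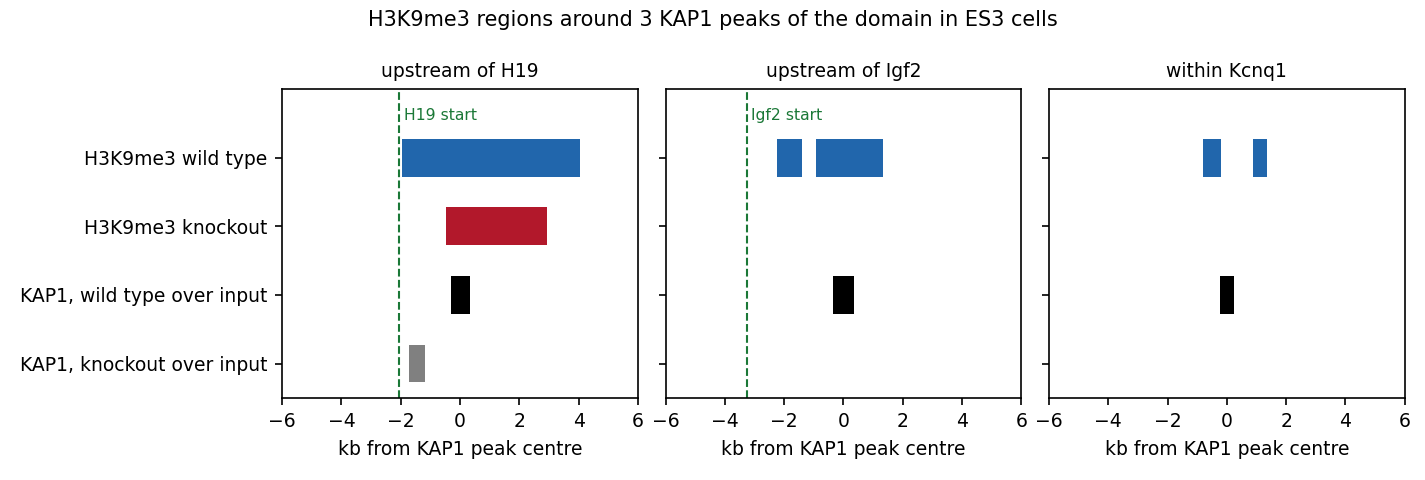
H3K9me3 regions and KAP1 peaks within 6 kb of the 3 wild-type KAP1 peaks that overlap H3K9me3 (horizontal axis in kb from the peak centre, bars to scale, dashed green line the gene start). The knockout H3K9me3 bar is present upstream of H19, where it is 3416 bp against 5983 bp, and no knockout region was called at the peaks upstream of Igf2 and within Kcnq1.

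Most knockout-only regions of the domain lay inside Kcnq1. This 320 kb span (chr7:150293159-150612955) had 7 wild-type regions, of which 6 were wild-type-only, and 21 knockout regions, of which 20 were knockout-only. The 20 were 213 to 1595 bp long with a median of 598 bp, 15.3 kb in all, and began 50.4 kb and ended 312 kb from the Kcnq1 start. Their density was 62.5 per Mb. It was 11.1 per Mb in the rest of the domain, 11.2 per Mb in the 5 Mb before it and 7.34 per Mb in the 1.23 Mb after it. Chromosome 7 had 10.3 per Mb and the genome 7.31. Among 2199 gene spans of at least 100 kb, of which 52.3% had no knockout-only region, Kcnq1 ranked 31 by density. Of the 30 denser spans, 19 were on chromosome 6 and 5 on chromosome 14. In those chromosomes 75.0% and 78.9% of knockout regions were knockout-only, against 35.8% to 56.2% on each of the other chromosomes with over 100 regions. Kcnq1 RNA stayed under 0.1 RPKM in all 4 libraries.

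Genes of other imprint control regions gave a scale for the H19 peak. From a list of 16 genes with a promoter at a germline control region, or near it in the cases of H19 and Meg3, 14 had a row. Distances are from 1 RefSeq start per gene. That start was not matched to the control region and can lie far from it. Of these, 8 (Peg3, Snrpn, Mest, Nnat, Airn, Nap1l5, Meg3 and H19) had a wild-type KAP1 peak over input within 20 kb of the start, against 6.94% of 17818 gene starts. Wild-type H3K9me3 lay within 20 kb of 7 of the 14, against 24.4%, and knockout H3K9me3 within 20 kb of 9, against 24.3%. The list was drawn up with KAP1 binding at such regions already known, so these counts are a description. At Peg3, expressed from the paternal copy as Igf2 is, a wild-type-only region and a KAP1 peak covered the start and RNA was higher, with 5.18 and 16.6 RPKM and a log2 ratio of 1.51. At Meg3 and Nnat both also covered the start, and the region was not wild-type-only. Meg3 had a log2 ratio of −0.51 and Nnat of 1.58. Grb10, Inpp5f and Plagl1 were also higher, with 2.34, 1.32 and 1.27, and had no wild-type KAP1 peak over input within 20 kb of the start used. Whether a peak lies at their control regions was not measured. Airn had a KAP1 peak 417 bp and a wild-type-only region 2198 bp from its start, and stayed within 2-fold with 0.67.

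Of 17 measured genes of the insulin-like growth factor pathway around Igf2, 9 were higher and 0 were lower in ES3 cells, against 12.5% and 3.18% of all measured genes. The median log2 ratio was 1.07 against 0.08 over all genes. The other 8 stayed within 2-fold, and among them Igfbp2, Igf2bp1 and Igf2bp3 had negative ratios, of −0.21, −0.22 and −0.58. Of the 9 higher genes, Igf2 itself, Igf1, Irs1 and Igfbp6 were under 1 RPKM in wild type. They were measured through the knockout alone and could not have been called lower. Igf2 was the largest, and Igfbp4, a binding protein that limits IGF action, followed with 1.90 and 12.4 RPKM and a ratio of 2.21. Htra1, a protease that cleaves IGF binding proteins, had 33.2 and 114.9 RPKM. Igfbp3, the main circulating binding protein, had 4.09 and 15.8, and Irs2, the receptor substrate, had 5.06 and 18.0. The receptors themselves stayed within 2-fold, with log2 ratios of 0.70 for Igf1r and 0.66 for Igf2r. In MEFs 0 of 18 measured genes were higher and 2 were lower, against 0.981% and 4.84% of all, among them Pappa, a protease of binding proteins, with 18.2 and 5.20 RPKM and a ratio of −1.63.

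Of 19 genes that keep imprints or silence such domains, 0 were higher and 4 were lower in ES3 cells, against 12.5% and 3.18% of all measured genes. The 4 include Trim28, the deleted gene itself, and the median log2 ratio was −0.49. Zfp57 had 52.9 and 20.4 RPKM, a ratio of −1.33. Dnmt3l, a cofactor of DNA methylation in germ cells, had 285.9 and 93.3 RPKM, a ratio of −1.61, and Suz12, a Polycomb subunit, 26.0 and 11.6, a ratio of −1.10. Ctcf, the insulator protein of the H19 control region, had 32.0 and 31.3 RPKM. In MEFs 4 of 16 were lower, against 4.84% of all, namely Trim28, Zfp445, Smchd1 and Suz12. The ratios were −1.35, −1.28 and −1.12 for the last 3. They were not centred for gene span, so how much of their size goes with span is unknown.

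The shares of all measured ES3 genes, 12.5% higher and 3.18% lower, also stand beside the families of the members. Phlda1, the Phlda2 relative that is not in the domain, had 5.92 and 30.9 RPKM, a log2 ratio of 2.21, on the other side from Phlda2. In the OSBP family 2 of 10 measured genes were higher, Osbpl5 and Osbp, and Osbp had 7.25 and 16.2 RPKM. That count is near the share of all genes, and the family median of 0.06 is near the 0.08 of all. Among the CDK inhibitors 2 of 6 were higher, Cdkn2b with 1.02 and 4.72 RPKM and Cdkn1a with 29.7 and 79.4, while Cdkn1c was not called. Of 29 measured imprinted genes of other domains, 7 were higher and 2 were lower, with a median of 0.27. Cobl had the largest ratio in size, −3.58, and Grb10 followed with 2.34. In MEFs 0 of 26 were higher and 3 were lower, against 0.981% and 4.84% of all.

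Across the 4 RNA libraries, whose 2 tables were normalized separately, the genes most like Igf2 were Creb3l2, Plat, Slc35f5, Igfbp4 and Tax1bp3, at Euclidean distances of 0.71 to 1.07 in log2(RPKM + 1) among 12832 genes. Creb3l2, a membrane-bound transcription factor, had 0.685 RPKM in wild-type ES3 cells, 15.2 in their knockout and 17.9 in wild-type MEFs. Of the other members Osbpl5 ranked 549 and Cdkn1c 828 by likeness to Igf2, and Phlda2 ranked 12410. The miR-675 row ranked 5064. Its own nearest genes were Ripply3, 2410076I21Rik, Tmem106a, Arrdc1 and Irf1, at 0.28 to 0.46.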

How the data were processed

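The authors deposited RPKM values per RefSeq transcript in 2 tables (22631 ES rows, 22630 MEF rows), with a ratio of knockout to wild type that equalled the quotient of the 2 columns in all 20054 and 19593 rows that give it. Bowtie and mm9 are named, with no versions, per the submitters' processing notes. The ES columns were taken as ES3, since the labels give a WT and KO pair for that line. Depth is unknown. H3K9me3 regions have no score; KAP1 peaks carry MACS-style names and the authors' deposited score. Each is 1 call per condition.

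Members and gene lists were chosen with earlier results of these data known. Named genes are all members, neighbours and up to 6 called genes per list by absolute ratio; receptors, Ctcf, Meg3 and list members beyond those were added after their values were seen. A symbol with several transcripts was read through its most abundant row, and log2((knockout + 1)/(wild type + 1)) was computed with a pseudocount of 1 RPKM. Measured meant 1 RPKM or more in either library, called meant 2-fold. Overlap meant 1 bp. Shares have Wilson 95% intervals. Coordinates are mm9 as deposited; RefSeq sequences are GRCm38.p6 and no coordinate was converted. The code was run on a noise-free copy of the wild-type ES3 values in which abundant genes were changed by set factors. That run checks the code alone and says nothing about error between libraries or at low levels. Python 3.11.15, pandas 2.3.3, NumPy 2.4.6, SciPy 1.17.1 and matplotlib 3.10.9 were used. Inputs, H3K27ac and Rex1GFP libraries were not analysed here.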

Additional observations from a re-analysis of the deposited data

Results flagged for a closer look

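Among the 5 members measured in both cell types, the ratios of 2 had opposite signs in ES3 cells and MEFs. Igf2 had a log2 ratio of 3.65 in ES3 cells and −0.36 in MEFs. Slc22a18 had −0.70 in ES3 cells and 0.62 in MEFs. With 1 library per condition these differences between cell types were not tested. For Slc22a18 neither value reached 2-fold after the addition of 1 RPKM.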

How the results depend on the processing

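No paired analysis was possible because each condition had 1 RNA library, so no replicate could be left out either. With a pseudocount of 0.1 RPKM, 2 members were lower in ES3 cells, since Slc22a18 reached −1.06 and joined Phlda2, and the miR-675 row reached 1.08 and joined the higher genes, making 3. At the same setting 1 member was higher in MEFs, Slc22a18 with 1.12. With peaks at or above the median score of their list, 0 KAP1 peaks remained in knockout chromatin over input. With 0.1 or 5 RPKM the log2 ratio in ES3 cells was 4.59 or 2.20 for Igf2 and 3.60 or 1.31 for Osbpl5, both still called. The other settings were a pseudocount of 5 RPKM, other filters on low values, centring, mean transcripts, a 3-fold threshold, other windows and other overlaps. Of the alternative values, 92 for single genes and 68 for counts and medians kept their direction and call or stayed within 1.5 times, and 3 of each did not. Unknown depth limits the miR-675 row, Igf2, Osbpl5 and Slc22a18, which stood near or under 1 to 3 RPKM in wild-type ES3 cells.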
